A study of Mus musculus with 2 samples.

Results

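Myh4 encodes myosin heavy chain 2B, the motor protein of type 2B fibers. Its counts were followed through every isolated myofiber that held at least 20 counts, in unique molecular identifiers (UMIs), summed over Myh1, Myh2, Myh4, Myh7 and Myh8 (the Myh sum). This rule took in 672 of 763 cells, namely 585 whole myofibers and 87 fragments. Of these, 171 passed the study's limits of more than 5000 genes and less than 20% mitochondrial counts (kept), and 501 did not (excluded). Among the excluded cells, 53 fell short of the gene minimum alone, 111 exceeded the mitochondrial maximum alone and 337 failed both limits. Because the Myh counts chose the cells and name their classes, the Myh values below are a description and carry no test.

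Muscle contraction is driven by myosin heavy chains, and each fiber type is defined by the isoform it makes. In the mouse, Myh7 marks slow type 1 fibers, Myh2 marks type 2A, Myh1 marks type 2X and Myh4 marks type 2B, the fastest and most glycolytic of the adult types, which fills much of the large fast limb muscles. Myh8 is the perinatal isoform and Myh13 the extraocular one. The fast genes lie side by side in one cluster, and single fibers may hold transcripts of neighbouring types at once.

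All cells came from the fast flexor digitorum brevis (FDB) muscle of the hind foot, of an untreated C57BL/6J mouse older than 3 months, and only 1 animal was used. Whole myofibers were released by collagenase and sorted on a large-particle flow cytometer, and fragments were made by cutting the muscle before the sort. By the study's account, whole myofibers came from muscle taken out tendon to tendon, and fragments from small portions cut with scissors. Whether both came from the same foot is not given, so kind of cell and preparation cannot be told apart. Cells labelled whole came from a gate of long particles and a gate of shorter ones, the latter holding rod-shaped pieces by the study's account, and which gate a cell came from was not analysed here. The cells filled 8 plates with index numbers 705 to 712, sequenced on 2 lanes. The plates used the same set of 96 well barcodes, 93 of them found in all 8 plates. Cells of 1 animal are not replicates, so no p-value was computed, and all limits are exact 95% limits that cover counting error only.

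Depth differed strongly between the groups. Kept cells had a median of 239581 UMI counts, 12240 genes and 5.96% mitochondrial counts, compared with 19735 counts, 2994 genes and 51.8% in excluded cells. Fragments had a median of 33911 counts, 4016 genes and 54.4% mitochondrial counts, and whole myofibers had 31542, 4036 and 37.8%. The Myh sum itself had a median of 3209 counts in kept cells and 77 in excluded cells, so that a share of Myh4 in 1 excluded cell has wide limits. At the edge of the rule, the 4 cells with a sum of exactly 20 held 2 Myh4 counts, and the 4 cells just outside with a sum of 18 held 1.

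In GRCm38 (GENCODE release M21), Myh4 (ENSMUSG00000057003.12) spans chromosome 11 from 67238029 to 67260446 on the plus strand. It follows Myh1 after 13453 bases and precedes Myh8 by 16677 bases. The antisense gene Myhas lies on the minus strand from 67211256 to 67237573, reaching from inside Myh1 to just before Myh4 without overlapping it. Myhas was at 32.6 CPM (counts scaled to a total of 1000000) in kept cells, 13 CPM in fragments and 15.9 in the fragments led by Myh4, where Myh4 itself reached 5700 CPM. Whether the counting used strand is not given in the sources used here.

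How far Myh4 reads can be told from its neighbours depends on its sequence, since the cDNA read was 66 bases long and began near the 3′ end of the transcript. The last 66 coding bases before the stop codon of Myh4, Myh1 and Myh2 are shown for this reason, with capitals where a base differs from Myh4. They lie in the last exon of each gene on the plus strand of chromosome 11, at 67260272 to 67260337 for Myh4, 67224401 to 67224466 for Myh1 and 67197320 to 67197385 for Myh2.
Myh4: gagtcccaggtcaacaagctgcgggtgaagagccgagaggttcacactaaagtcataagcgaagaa
Myh1: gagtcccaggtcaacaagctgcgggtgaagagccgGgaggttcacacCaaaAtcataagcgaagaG
Myh2: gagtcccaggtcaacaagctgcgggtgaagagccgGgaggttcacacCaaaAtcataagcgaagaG
Myh1 and Myh2 were identical to each other here, and each differed from Myh4 at 4 bases. Other stretches cannot be told apart at all. One of 66 bases in exon 26 of 39 (67253277 to 67253342) is found in Myh2 as well, and one in exon 23 (67252224 to 67252289) is found in Myh1, Myh2 and Myh8.
Myh4 exon 26: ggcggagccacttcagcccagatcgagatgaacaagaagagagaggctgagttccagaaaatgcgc
Myh4 exon 23: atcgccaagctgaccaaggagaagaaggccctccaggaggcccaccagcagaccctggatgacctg
Of all 5951 stretches of 66 bases in the Myh4 transcript, 12.7% occur in another of the Myh genes compared. Within the last 600 bases this was 6.73%, with 3.36% shared with each of Myh1, Myh2 and Myh8 and none of the 535 stretches shared with Myh7 or Myh13. Low Myh4 values beside high Myh1 or Myh2 are uncertain on this account. These percents are shares of stretches and not of counts, and how far shared stretches change the Myh4 counts was not tested.

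Over the 672 cells Myh4 contributed 19360 of 875349 Myh counts, or 2.21%. At least 1 Myh4 count was found in 555 cells (82.6%), and 117 had none. In kept cells the median share of the Myh sum was 1.49%, with quartiles of 1.03% and 2.87%, so that Myh4 was a minor transcript in nearly all of them. In excluded cells the median was 2.16% (quartiles 0.690% and 4.76%). The shares reached higher on the excluded side, where 54 of 501 cells had at least 10% Myh4 against 1 of 171 kept cells.

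Whole myofibers had a median Myh4 share of 1.71% (quartiles 0.798% and 3.45%), and fragments had 7.55% (quartiles 4.15% and 16.0%). Summed over cells, Myh4 made up 1.79% (limits 1.77 to 1.82) of the Myh counts of whole myofibers and 18.75% (limits 18.2 to 19.3) of those of fragments. Among whole myofibers the median was 1.47% in the 168 kept cells, 0.656% in the 52 that missed the gene minimum alone, 1.95% in the 81 that exceeded the mitochondrial maximum alone and 1.95% in the 284 that failed both limits. Among fragments it was 1.69% in the 3 kept cells, with a range from 1.35% to 7.72%, 4.55% in the 1 that missed the gene minimum alone, 6.14% in the 30 that exceeded the mitochondrial maximum alone and 9.76% in the 53 that failed both. Over all 417 excluded whole myofibers the median was 1.82%, and over 84 excluded fragments it was 7.79%. Summed, Myh4 made up 2.84% (limits 2.70 to 2.99) of the Myh counts of excluded and 1.72% (limits 1.69 to 1.75) of those of kept whole myofibers, and 19 of 417 and 1 of 168 had a share of at least 10%.

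**Figure D1:**
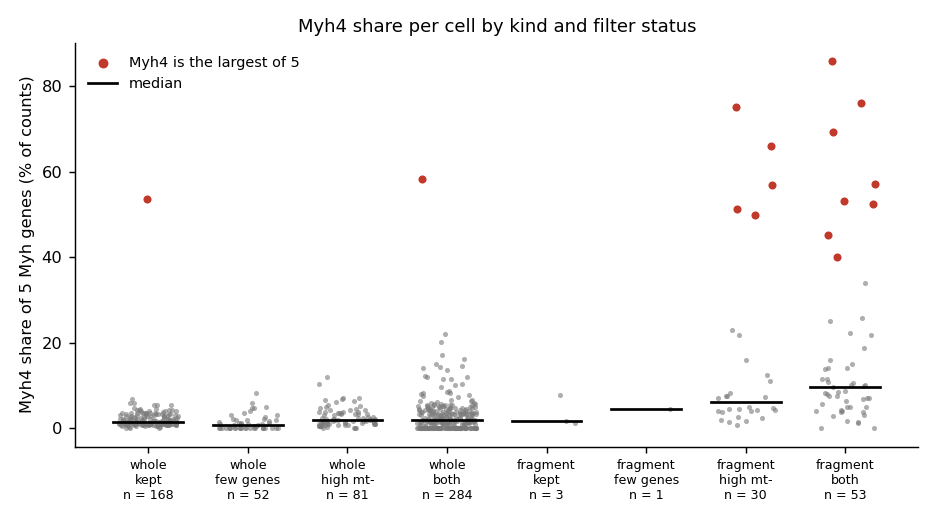
Myh4 share of the Myh sum (% of counts) in each of the 672 cells, by kind of cell and filter status, with 1 point per cell, red where Myh4 led, and a bar at the median. Whole myofibers have medians of 0.656% to 1.95% in every status, and fragments reach medians of 6.14% and 9.76% where the mitochondrial limit failed.

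The same order was seen on each plate. The fragment median exceeded the whole myofiber median on 8 of 8 plates, with fragment medians from 5.08% (plate 709) to 25% (plate 706) and whole medians from 1.48% (plate 706) to 2.77% (plate 705). Both lanes gave it too, at 7.35% in fragments and 1.89% in whole myofibers on lane 1, and 8.20% and 1.55% on lane 2. The largest gap in summed share was on plate 710, where Myh4 made up 32.7% of the Myh counts of 10 fragments and 1.45% of those of 77 whole myofibers. Every fragment had been placed in row 8, the final row, and fragment, preparation and plate row cannot be told apart. The 7 rows of whole myofibers had medians from 1.41% to 2.02%.

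**Figure D2:**
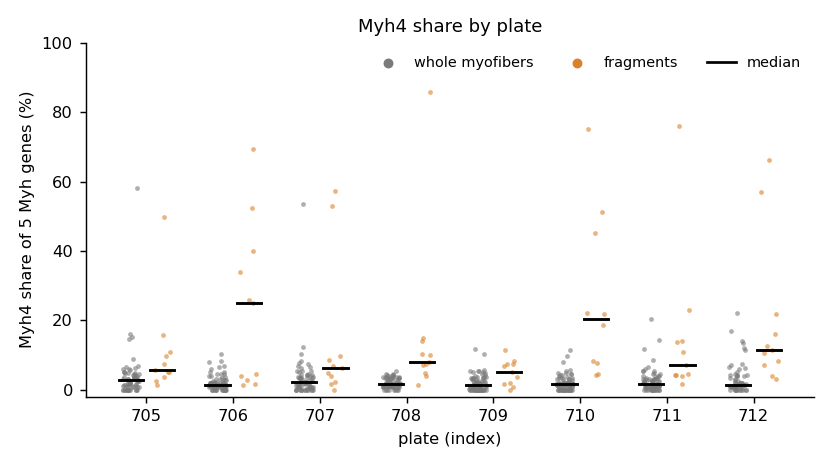
Myh4 share of the Myh sum (%) on each of the 8 plates, with 1 point per cell, whole myofibers in grey, fragments in orange and a bar at each median. Fragment medians lie between 5.08% and 25%, above the whole myofiber medians of 1.48% to 2.77% on all 8 plates.

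With each cell reduced to 20 Myh counts, an expected 76.2% of fragments and 34.9% of whole myofibers held a Myh4 count, where 31.6% of kept cells did. The median in fragments was still 7.06% after the cells led by Myh4 were left out (74 cells), compared with 1.69% in 583 whole myofibers. A Myh4 share of at least 20% was found in 20 of 87 fragments and in 4 of 585 whole myofibers. Median mitochondrial content was 55.9% in excluded fragments and 51.4% in excluded whole myofibers, and its part in the shares was not tested.

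In 15 of the 672 cells Myh4 had more counts than each of the other 4 genes (2.23%, limits 1.25 to 3.65), termed Myh4-leading. Of these, 13 were fragments, which is 14.9% of fragments (limits 8.20 to 24.2), and 2 were whole myofibers, which is 0.342% of them (limits 0.0414 to 1.23). Excluded cells made up 14 of the 15. The leading fragments were spread over 7 of 8 plates, with none on plate 709, and over 7 of the 11 well barcodes that fragments occupied, and 7 were on lane 1 and 6 on lane 2. They held 71.0% of all Myh4 counts of fragments.

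In the 13 leading fragments the share ran from 40.0% to 85.9% with a median of 56.9%. A fragment on plate 708 was the purest, with 1045 Myh4 counts of a Myh sum of 1217 (85.9%, limits 83.8 to 87.8), 106 of Myh1 and 56 of Myh2. On plate 711 a fragment held 417 of 548 (76.1%). The 3 fragments of plate 710 held 391 of 521 (75%), 120 of 234 (51.3%) and 74 of 164 (45.1%).

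Plate 706 also gave 3, with 187 of 270 (69.3%), 64 of 122 (52.5%) and 28 of 70 (40.0%). On plate 712 the values were 197 of 298 (66.1%) and 66 of 116 (56.9%), on plate 707 they were 40 of 70 (57.1%) and 52 of 98 (53.1%), and on plate 705 there was 1 with 190 of 381 (49.9%). These are the shares of single cells with 28 to 1045 Myh4 counts. In 11 of the 13 the lead over the next gene was clear of counting error, and the 2 where it was not were those with 74 and 28 Myh4 counts.

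The next gene was Myh1 in 11 of the leading fragments and Myh2 in 1, on plate 705, and in 1 the pair were level at 15 counts each. Myh7, the slow isoform, had no count in 7 of the 13, and Myh8, the perinatal one, had 0 or 1 count in 11. As CPM of all counts, Myh4 ran from 1664 to 33884 in these fragments with a median of 4238. Their depth was that of fragments in general, with 7784 to 85476 total counts, 1671 to 8716 genes and 31.5% to 61.2% mitochondrial counts, and 5 of the 13 passed the gene minimum. Every one of them was removed by the mitochondrial limit.

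Outside the fragments, a whole myofiber of plate 705 that failed both limits held 142 Myh4 counts of 244 (58.2%, limits 51.7 to 64.5), with Myh2 next at 62. The kept cell, a whole myofiber of plate 707, held 750 of 1402 and is described further on. The highest share of a cell without the lead was 34.1%, in a fragment whose Myh1 share was 45.1%, the highest in a whole myofiber without it was 22.0%, and the highest in a kept cell without it was 7.72%.

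**Figure D3:**
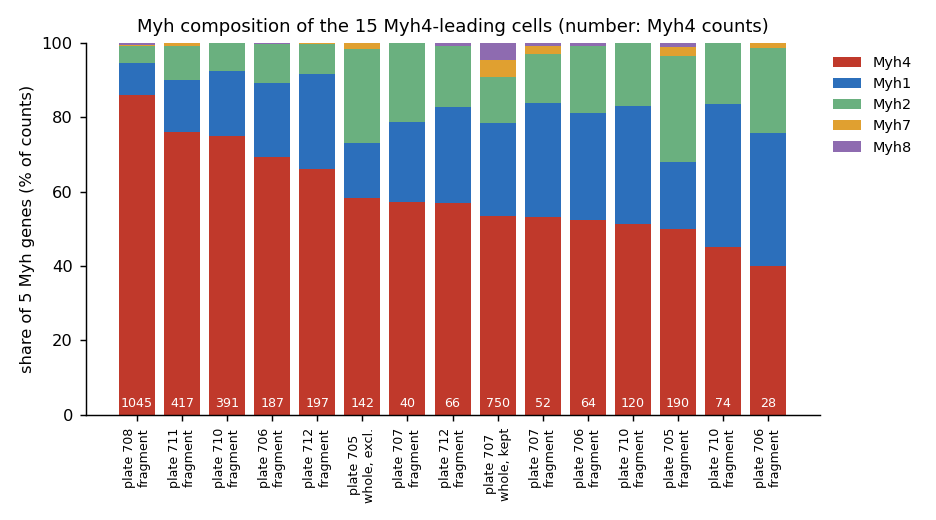
Composition of the Myh sum (% of counts) in the 15 Myh4-leading cells, ordered by Myh4 share, with the number of Myh4 counts at the foot of each bar. Myh4 runs from 40.0% to 85.9%, and Myh1 takes most of the remainder in most of the fragments.

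Set against Myh2, Myh4 was close to a fixed proportion in kept cells. Summed Myh4 was 5.70 counts per 100 Myh2 counts (limits 5.57 to 5.83) in the 117 kept cells led by Myh1, 5.24 (limits 5.10 to 5.39) in the 51 led by Myh2 and 5.05 (limits 3.45 to 7.17) in the 2 led by Myh7, whose Myh4 counts totalled 33. Across the 163 kept cells that did not lead in Myh4 and had at least 100 Myh2 counts, the quartiles of the ratio were 4.58 and 6.75, within a range from 1.17 to 14.7. Of the 66-base stretches of Myh4, 5.51% are found in Myh2 too, and the part of such stretches in this proportion was not tested.

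Summed over excluded whole myofibers the ratio was a little above this, at 8.20 per 100 (limits 7.70 to 8.72) where Myh1 led and 5.86 (limits 5.19 to 6.59) where Myh2 led. The median over single cells was not above it. Where Myh1 led it was 5.56 in excluded whole myofibers and 5.88 in kept cells, and where Myh2 led 4.86 and 5.07. Fragments led by Myh1 held 29.2 Myh4 counts per 100 of Myh2 (limits 27.2 to 31.3) and those led by Myh2 held 9.22 (limits 7.43 to 11.3). In the leading fragments the ratio was 627 per 100 (limits 568 to 693). Of cells with at least 20 Myh2 counts, 2 of 171 kept cells (1.17%), 19 of 241 excluded whole myofibers (7.88%) and 36 of 62 fragments (58.1%) held at least 20 Myh4 counts per 100 of Myh2. Without the Myh4-leading fragments it was 27 of 53 (50.9%, limits 36.8 to 64.9).

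**Figure D4:**
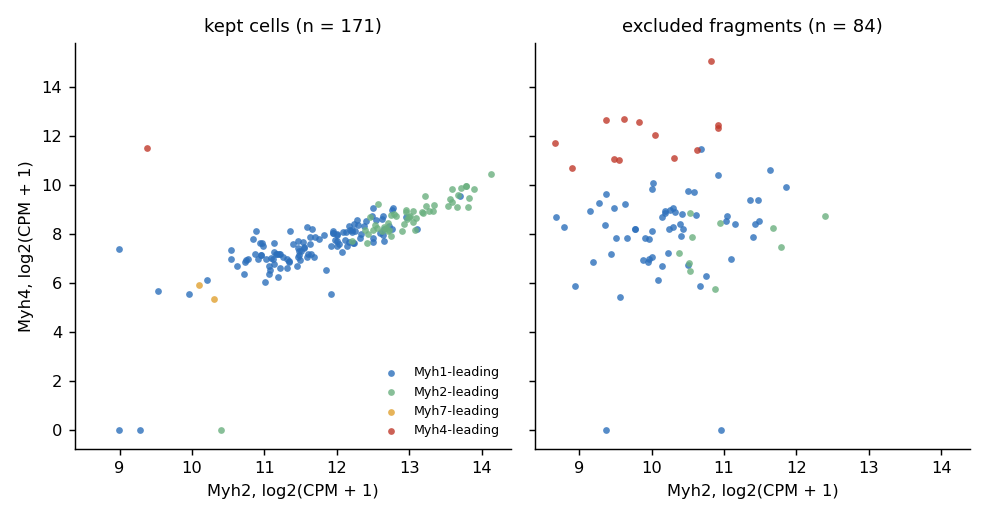
Myh4 against Myh2, both as log2(CPM + 1), with 1 point per cell coloured by its leading gene, for the 171 kept cells (left) and the 84 excluded fragments (right). Most kept cells lie along one band (Spearman rho 0.86), with the Myh4-leading cell far above it, and the fragments are scattered, many of them higher in Myh4 at the same Myh2.

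Over the 171 kept cells, the genes whose log2(CPM + 1) ranked most like Myh4 were led by Myh2, with a Spearman rho of 0.86 among 2648 genes that had a count in at least 95% of the cells. These cells share libraries and range widely in depth, so the coefficients are a description. Actn2, the Z-disc alpha-actinin, followed at 0.66, Xirp2, an actin-binding repeat protein of muscle, at 0.65, and Ckmt2, the mitochondrial creatine kinase of sarcomeric muscle, at 0.65. Next came Map1a at 0.64, Ldhb, the heart-type lactate dehydrogenase subunit, at 0.61, H19 at 0.59, Kif1b at 0.59 and Tnni1, the slow troponin I, at 0.58. The 95th percentile over all genes compared was 0.32.

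At the other end stood Cntnap2 at −0.57, Itpr1 at −0.54, Fhit at −0.52, Lrmda at −0.49 and Actn3, the alpha-actinin of fast fibers, at −0.47. Myh1 was at −0.24, and of the fast list Pvalb, the calcium buffer parvalbumin, was at −0.45 and Mybpc2, the fast myosin-binding protein C, at −0.43. Of the 18 slow and oxidative genes 14 entered, all with rho above 0 and a median of 0.53, and of the 18 fast genes 1 was above 0, with a median of −0.24, beside 49.8% of all genes compared and a median near 0. As Pearson r 14 of the 18 fast genes were above 0, with a median of 0.18. These values mix the classes, which differ in Myh2 and Myh4. Within the Myh1-leading cells the slow genes had a median rho of 0.29 (14 of 14 above 0) and the fast genes of 0.00 (9 of 18), beside 0.03 over all genes, with Ldhb at 0.28, Tnni1 at 0.31 and Actn3 at −0.18. Within the Myh2-leading cells the medians were 0.15 (13 of 16 above 0) and −0.21 (3 of 18), beside −0.05, with Ldhb at 0.10, Tnni1 at 0.18 and Actn3 at −0.28. The rho of Myh2 was 0.78 within the Myh1-leading cells and 0.85 within the Myh2-leading cells, and the plates gave 0.62 to 0.96.

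Fragments did not show this order. Over 87 fragments and 204 genes, the rho of Myh2 was 0.01 and the highest was 0.46 for Ckm, the muscle creatine kinase. Actn3 was at 0.35, Pvalb at 0.35 and Mybpc2 at 0.35. Of the fast list 16 genes entered, all above 0 with a median of 0.15, beside 61.3% of all genes and a median of 0.04. Of the slow list 6 entered, none above 0, with a median of −0.14. The lowest value was −0.26 for Tnnt1, the slow troponin T, with Tnni1 at −0.18. In the 74 fragments that did not lead in Myh4, Myh2 was at 0.15, Ckm at 0.30, Mybpc2 at 0.19 and Tnnt1 at −0.15. There the fast list had a median of 0.20 (16 of 16 above 0) and the slow list of −0.04 (2 of 6), beside 0.11 and 73.9% of all genes. In the 81 excluded whole myofibers with over 5000 genes Myh2 was at 0.41, compared with 0.23 over all 111 excluded cells of that depth. In those whole myofibers the slow list had a median of 0.33 and the fast list of 0.30, beside 0.13 over all genes. These cells hold far fewer counts than the kept ones, and their weak coefficients are not read further.

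Kept cells led by Myh2 held more Myh4 than those led by Myh1. The summed level was 464 CPM in 51 Myh2-leading cells and 192 CPM in 117 Myh1-leading cells, a log2 ratio of 1.27 (limits 1.22 to 1.32), and each of the 8 plates gave a ratio above 0, from 0.98 to 1.67. Per Myh2 count the ratio became −0.12 (limits −0.17 to −0.07). The difference between the classes was thus of the size of their difference in Myh2.

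In excluded cells the classes were tied to a plate. Of 66 excluded Myh2-leading cells 51 were on plate 705, and the other 7 plates had 15 among 439 excluded cells. For excluded whole myofibers of those 7 plates the share led by Myh2 was 3.83% (14 of 366, limits 2.11 to 6.33), compared with 27.0% (41 of 152, limits 20.1 to 34.8) in kept whole myofibers. The median Myh2 share of the Myh sum was alike in both, at 29.3% and 28.4%, but its quartiles were closer together in the excluded cells, at 23.9% and 34.5%, than in the kept ones, at 16.7% and 49.8%. Myh4 in excluded Myh2-leading over Myh1-leading cells gave a log2 ratio of 0.22 (limits 0.06 to 0.38) over all cells. It was 0.75 (limits 0.56 to 0.94) in whole myofibers and −0.67 (limits −0.99 to −0.38) in fragments, and within plate 705 it was −1.57 (limits −1.87 to −1.26). Class and plate cannot be told apart in the excluded cells, and no direction is read from them.

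As a level, Myh4 reached 267 CPM (limits 262 to 271) in kept and 357 CPM (limits 348 to 367) in excluded cells, a log2 ratio of kept over excluded of −0.42 (limits −0.47 to −0.38). The direction depended on the fragments. In whole myofibers only, Myh4 was at 267 CPM in kept and 126 CPM in excluded cells (log2 ratio 1.08, limits 1.00 to 1.16). The mitochondrial counts are part of this total, and without them the ratio in whole myofibers was 0.07 (limits −0.00 to 0.15).

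The genes that went with the Myh4 lead were compared in 13 Myh4-leading against 61 Myh1-leading excluded fragments, which had similar depth and came from the same plate rows. Of 2346 genes with at least 20 counts in the leading fragments or expected there, 14.4% were at least 2-fold higher and 2.81% at least 2-fold lower, with a median log2 ratio of 0.10 over all genes. The leading fragments held fewer mitochondrial counts, at 47.3% of their sum against 52.4%, and with totals free of mt- genes every log2 ratio of the other genes falls by 0.15, giving 249 of 2331 genes at least 2-fold higher and 111 lower in place of 337 and 66. The lists below were chosen with knowledge of the data.

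Among 18 fast and glycolytic genes none differed by 2-fold in either direction, and 5 were above 0, beside 55.6% of all genes. Their median log2 ratio was −0.06, or −0.21 without mt- genes in the totals. Gpd1, the cytosolic glycerol-3-phosphate dehydrogenase, had the highest log2 ratio of the list at 0.66 (limits 0.02 to 1.25). Mybpc2 was at 478 CPM against 317 CPM (log2 ratio 0.59, limits 0.38 to 0.80), and 12 of 13 leading fragments lay above the median of the Myh1-leading ones. Actn3 was at 0.29 (limits 0.16 to 0.42), and Pvalb was at −0.02 (limits −0.12 to 0.09). Ckm, followed as a myofiber marker and not in this list, was at 0.62 (limits 0.52 to 0.72), above the reference median in 11 of 13 leading fragments. It was the 1 of the 6 myofiber markers above 0, and their median was −0.29.

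Of 18 slow and oxidative genes 16 entered, and 15 were below 0 where 55.6% of all genes were above it. The median log2 ratio was −0.67. At least 2-fold lower were 3, beside 2.81% of all genes, and none was 2-fold higher. Without mt- genes in the totals 4 were at least 2-fold lower and the median was −0.82. Myl3, the slow ventricular-type light chain, was at 21.8 CPM against 62.7 CPM (log2 ratio −1.52, limits −2.55 to −0.64), and had a count in 3 of 13 leading and 45 of 61 other fragments. Ankrd2, a stretch-responsive repeat protein, was at −1.20 (limits −1.99 to −0.50) and Ldhb at −1.13 (limits −1.94 to −0.41). Tnnt1 was at −0.88 (limits −1.22 to −0.56) and Tnni1 at −0.63 (limits −0.95 to −0.31), and Lpl, the lipoprotein lipase, was the highest at 0.04, which falls below 0 without mt- genes in the totals. Myh7 and Myh8 belong to the Myh sum that sets the classes, so their log2 ratios of −1.35 and −0.87 are a description only. Of the 18 Myh8 counts in the leading fragments, 9 were in a single fragment.

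Compared with the 10 Myh2-leading fragments, 10 of the 16 slow genes were at least 2-fold lower, beside 16.6% of all 2581 genes. Of those 10 fragments 9 were on plate 705, so this reference cannot be told apart from that plate.

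Of 14 regulators of fiber type 7 entered. Sox6, a repressor of slow genes in fast fibers, was the single one past 2-fold, beside 14.4% of all genes at least 2-fold higher. It was at 189 CPM against 89.5 CPM with a log2 ratio of 1.07 (limits 0.71 to 1.43), which is 0.93 and under 2-fold without mt- genes in the totals. It had a count in 12 of 13 leading fragments, and 1 fragment of plate 710 held 47.4% of its 95 counts. Lane 2 leading fragments held 45, 11, 10, 9, 6 and 3 Sox6 counts, and no lane 1 leading fragment held more than 6. Their total counts ran from 36100 to 63567 on lane 2 and from 7784 to 85476 on lane 1. Maf, which encodes a large Maf factor known to activate Myh4, was at 61.5 CPM against 30.9 CPM (log2 ratio 0.99, limits 0.34 to 1.61), with counts in 8 of 13 leading and 31 of 61 other fragments. Lane 2 leading fragments held 3 to 7 Maf counts each, and those of lane 1 held 0 to 3. Neither the Sox6 nor the Maf ratio was computed by lane. Tbx15, a factor of glycolytic fibers, was at −0.78 (limits −1.47 to −0.16).

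The 5 highest ratios belonged to genes of few counts, and 4 of them rested on 1 to 3 cells. Il1r2, a decoy interleukin receptor, and Gm47423 were both at 4.09, with 90.5% and 67.9% of their counts in 1 cell, and Nkd1, a Wnt pathway inhibitor, at 3.80 had all 20 counts in 1 cell. Samd5 was at 3.80. Igfn1, which encodes an immunoglobulin-domain protein of the muscle Z-disc, was broader, with 65 counts in 7 of 13 leading fragments against 25 counts in 14 of 61, a log2 ratio of 3.66 (limits 2.98 to 4.39). Its counts were uneven between lanes, at 25, 16, 12, 3, 1 and 0 in the lane 2 leading fragments. No lane 1 leading fragment held more than 5, and the Igfn1 ratio was not computed by lane. The lowest were N4bp2l2 at −3.02, where 1 reference fragment held 86.9% of the reference counts, Rbp7, Kdm2b, Actn4 and Add1.

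Over all excluded cells, 14 Myh4-leading against 418 Myh1-leading, 13.1% of 2489 genes were at least 2-fold higher and 1.97% at least 2-fold lower, with a median log2 ratio of 0.18. Mitochondrial counts made up 47.0% of the leading and 54.1% of the reference sum, and with totals free of mt- genes 223 of 2473 genes were at least 2-fold higher and 108 lower in place of 326 and 49. These counts rested on which lane was used, with 458 higher and 27 lower without lane 1 and 90 higher and 100 lower without lane 2. The highest were Gm47423 at 4.38, Igfn1 at 3.80 (limits 3.33 to 4.25), Samd5 at 3.50, Gm29681 at 3.43 and Adh1 at 3.27. The lowest were Adamts4 at −3.03, Cxcl1 at −2.31, Ctnnal1 at −2.26, Adrm1 at −2.01 and Actn4 at −1.87. Here the fast list had a median of 0.16, or −0.05 without mt- genes in the totals, with no member past 2-fold, and the slow list had a median of −0.33 with Myl3 alone at least 2-fold lower. Sox6 at 1.00 and Maf at 1.38 (limits 0.82 to 1.89) were both at least 2-fold higher, and without mt- genes in the totals they were at 0.79 and 1.17. As in the fragments, these 2 ratios were not computed by lane. The reference is mostly whole myofibers and the leading cells are mostly fragments, so these values hold the difference between the kinds as well.

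Markers of other cells were present in both groups of fragments. The 6 myofiber markers summed to 32933 to 79472 CPM per fragment, compared with 25071 to 113728 CPM in the Myh1-leading fragments. The 5 endothelial markers ranged from 0 to 1110 CPM (median 11.7) against 0 to 1928 CPM (median 80.4), and the 5 fibroblast markers from 0 to 514 CPM (median 50.4) against 0 to 1126 CPM (median 31.8). The 5 smooth muscle and pericyte markers ranged from 0 to 1564 CPM against 0 to 1560 CPM. Summed over the fragments of a group, the smooth muscle and pericyte markers were at 284 CPM in the leading and 172 CPM in the Myh1-leading fragments, the fibroblast markers at 125 and 62.7 CPM and the Schwann cell markers at 65.5 and 19.5 CPM. Endothelial markers were at 262 and 317 CPM. Satellite cell, Schwann cell, immune and red blood cell lists all had a median of 0 in both groups. Hba-a2 had no count in either group, and Myf5 had none in the leading fragments. Emcn (1.61) and Dcn (1.48) were at least 2-fold higher and Flt1 (−1.24) at least 2-fold lower on the log2 scale. The part of these cells in the differences above was not tested.

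**Figure D5:**
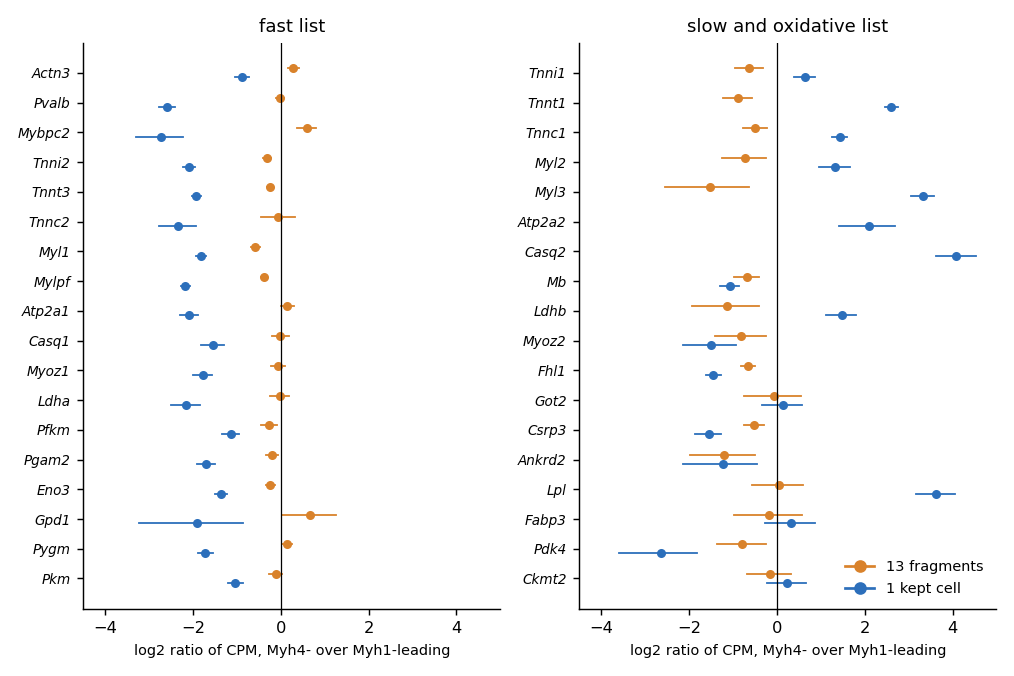
Log2 ratio of CPM in Myh4-leading over Myh1-leading cells for the fast list and the slow and oxidative list, for 13 fragments (orange) and for the kept cell (blue), with lines for exact 95% limits; genes with too few counts are left out. In fragments the fast genes lie around 0 and the slow genes mostly below it, and in the kept cell the fast genes lie from −2.73 to −0.88.

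The Myh4-leading kept cell was a whole myofiber with 257020 counts, 16417 genes and 5.58% mitochondrial counts, and is a single cell of plate 707, so each ratio below compares that cell with the sum of 117 Myh1-leading kept cells. Of 3349 genes 44.2% were at least 2-fold higher and 14.7% at least 2-fold lower, and the median log2 ratio was 0.72, so that changes are read relative to that shift. With TMM scaling every log2 ratio is lower by 0.38, and 1193 genes were at least 2-fold higher and 746 lower in place of 1480 and 492.

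Its fast genes were lower than those of the Myh1-leading cells. Of the 18 fast genes 17 were at least 2-fold lower, and the remaining one, Actn3, was at −0.88 (limits −1.04 to −0.73). The median log2 ratio was −1.86. Mybpc2 was at 121 CPM against 802 CPM (log2 ratio −2.73), and Pvalb was at 1058 CPM against 6360 CPM (log2 ratio −2.59). Acta1, the skeletal actin, was at −1.94, and the 6 myofiber markers summed to 39227 CPM against a median of 114867 CPM in the reference.

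Its slow genes were mixed, with a median log2 ratio of 0.48, or 0.10 with TMM scaling. At least 2-fold higher were 8 of 18, beside 44.2% of all genes, among them Casq2, the cardiac and slow calsequestrin, at 4.09 (limits 3.62 to 4.53), Lpl at 3.62, Myl3 at 3.32, Tnnt1 at 2.61 and Atp2a2, the slow calcium pump, at 2.09. At least 2-fold lower were 6, beside 14.7% of all genes, among them Pdk4 at −2.63, Ankrd2 at −1.22 and Mb, myoglobin, at −1.08. Of the regulators, Nfatc1, a calcineurin target factor, was at 2.56, Esrrg at 2.02 and Ppargc1a at 1.16, while Vgll2 was at −2.35 and Maf at −1.48.

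Against the 51 Myh2-leading kept cells, 45.1% of 3296 genes were at least 2-fold higher and 14.4% at least 2-fold lower. The slow list then had a median log2 ratio of −1.14, with 10 of 18 at least 2-fold lower and Casq2 alone at least 2-fold higher, at 3.13. Lpl was at 0.92, Atp2a2 at 0.89, Myl3 at 0.43 and Tnnt1 at −0.91. Of the 17 fast genes that entered, 10 were at least 2-fold lower, with a median of −1.20, Mybpc2 at −0.60, Pvalb at −0.98 and Actn3 at 0.85. Nfatc1 (2.82), Esrrg (1.19), Ppargc1a (1.13) and Vgll2 (−2.59) kept their sign, and Maf was at 0.65 with limits that include 0. Myh13 was at 7.25 and Igfn1 at 8.37 against this reference.

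The cell also held Myh genes that the Myh sum does not count. Myh13, the extraocular isoform and next but one to Myh4 in the cluster, had 647 counts or 2517 CPM, where no other kept cell exceeded 126 CPM. Myh7b, expressed in heart and some slow fibers, had 220 counts, a log2 ratio of 6.57, and Myh6, the atrial isoform, had 108 counts, a ratio of 5.09. Over 10 sarcomeric Myh genes summing to 2392 counts, Myh4 took 31.4%, Myh13 27.0%, Myh1 14.6% and Myh7b 9.20%. Egr3, an early growth response factor of muscle spindles, had 35 counts against 22 in the whole reference, a log2 ratio of 7.92 (limits 7.11 to 8.76). The 14 excluded leading cells together held 2 counts of Myh13 and none of Myh7b or Egr3.

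Genes of other tissues were present in it. The 5 highest ratios were for Fam240b (10.08), Angptl7 (8.47), Msln (8.28), Gjb2 (8.19) and Cldn1 (8.0), which include a gap junction and a tight junction gene, and the 5 lowest were for Gm31659 (−3.85), Dnaja2, Gm21865, Otud1 and Cib2. The 5 fibroblast markers were all at least 2-fold higher and summed to 2358 CPM, against a median of 24.2 and a maximum of 3706 CPM in the reference cells. Schwann cell markers summed to 607 CPM (reference median 9.77, maximum 3032) and immune markers to 206 CPM (median 7.34, maximum 486). What part cells other than the myofiber have in the profile of this well was not tested. Igfn1 was again high, with 477 counts and a log2 ratio of 7.55 (limits 7.35 to 7.75), and was the highest of 171 kept cells.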

How the data were processed

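The authors mapped the mcSCRB-seq reads with STAR 2.5.4b to GRCm38 with ERCC spike-ins added, and the zUMIs pipeline with featureCounts gave a UMI count for each gene. These raw counts were deposited by the authors in one table of 35163 genes and 763 cells, below 10 lines that describe each cell and give 2 of their values in percent, as deposited by the authors. All cells are of 1 mouse, so no test was run. The 27 mt- genes counted as mitochondrial, spike-ins were held apart, and no doublet caller was run on these sorted wells. Classes take the largest of the 5 Myh genes in a cell. The members and lists were chosen with earlier results of these data known.

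Shares have exact Clopper-Pearson limits, CPM exact Poisson limits and ratios of summed CPM exact conditional binomial limits, all at 95%. A gene entered a comparison with at least 20 counts in the Myh4-leading cells or expected there, and called means at least 2-fold. Named were the 5 genes highest and the 5 lowest in this ratio, the 10 highest and 5 lowest in Spearman rho with Myh4 on log2(CPM + 1), the Myh genes and the members of the lists. Some genes that this rule names are not reported here. The ratio and likeness scripts were tested on simulated data. Sequences and coordinates are from GENCODE M21 on GRCm38. Python 3.11.15 with numpy 2.4.6, pandas 2.3.3, scipy 1.17.1 and matplotlib 3.10.9 was used. Alternatives were other minimum counts, TMM scaling, totals without mt- genes, other references, thinning, and leaving out each lane or plate. Some were chosen after seeing the data: fragments only, whole myofibers only, per Myh2 count, without each plate, and without the leading cell with most Myh4 counts. Leaving out a lane was likewise not planned for the kept over excluded CPM, the genes that went with the Myh4 lead and the rho of Myh2.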

Additional observations from a re-analysis of the deposited data

Results flagged for a closer look

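The 91 cells below the minimum of 20 Myh counts enter no comparison above, and Myh4 was nevertheless found there. They held 17 Myh4 counts among 769 Myh counts, or 2.21% (exact 95% limits 1.29 to 3.52), against 249 counts of Myh2, which is 6.83 Myh4 counts per 100 of Myh2 (limits 3.91 to 11.2). Of the 91 cells, 85 were whole myofibers and 6 were fragments, with a median of 1289 total counts.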

How the results depend on the processing

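Of 146 recomputed values, 99 kept the direction and size of the value reported, by the spread over the 8 plates or within 1.5 times a count. The 15 Myh4-leading cells were 6 to 9 without a lane and 2 in whole myofibers only. After thinning to 20 Myh counts 13 cells led, 12 of them the same. The kept median share of 1.49% was 2.31% as a mean over cells, and the excluded 2.16% was 7.58% summed, 5.08% as a mean and 7.79% in fragments only. The kept class ratio of 1.27 was 1.58 on shares, 1.67 and 0.98 within plates 707 and 709, and −0.12 per Myh2 count. The excluded ratio of 0.22 was −0.019 without mt- genes, −0.053 with TMM, −0.67 in fragments only, −0.96 per Myh2 count and −0.021 to 0.13 without a lane (replicate). Within plates 705, 706, 708, 709 and 712 it was −1.57, −0.057, 1.28, 1.39 and −0.51. Kept over excluded CPM (−0.42) was −1.41 without mt- genes, 1.24 as a median over cells, 0.59 without the Myh4-leading cells and 1.08 in whole myofibers only.

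The 326 genes higher in excluded leading cells were 1038, 56 and 3881 with minima of 10, 50 and no counts, and 90 to 458 without a lane. The 49 lower genes were 251, 8 and 1728 with these minima, 278 with a Myh2-leading reference, 144 without mt- genes, 78 with TMM, and 27 to 100 without a lane. In the kept cell the 1480 higher genes were 2851, 404 and 7925, and the 492 lower ones 803, 237 and 1702, or 746 with TMM. The rho of Myh2 (0.86) was 0.72 as Pearson r, 0.72 after thinning and 0.23 in excluded cells with over 5000 genes. The minima and left-out lanes change how many genes or cells enter, and for the other changes the cause was not tested. The kept comparison without lane 1 could not be run, since its Myh4-leading cell is there. No paired analysis was possible because both lanes hold cells of 1 mouse and no test was run, and values within plates stand beside the results above. Counts of 28 to 190 Myh4 molecules limit the precision of most leading cells.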
